A study of Mus musculus with 8 samples.

Results

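The 10 genes described here belong to the neuronal activity response and were measured in the cerebral cortex of an accelerated aging model. They are *Npas4*, *Arc*, *Egr1*, *Egr2*, *Egr3*, *Egr4*, *Nr4a1*, *Nr4a2*, *Nr4a3* and *Btg2*, chosen by gene symbol, and 19 of the 45037 probe sets tested carry 1 of these 10 symbols among 19785 symbols in all. The samples were 8 arrays, 2 from each of 4 groups of untreated male mice: SAMP8, the senescence-accelerated prone strain, at 1 year and at 16 weeks, and SAMR1, the senescence-resistant control strain, at 1 year and at 16 weeks. No transgene or engineered allele is named for either strain. In the labels of the SAMP8 samples the genotype is spelled SAMR8, and grouping went by sample title. The mice were housed singly, and it is not stated which mouse each array measured, so a p-value here reflects no more than array-to-array spread, which may be technical. Signals are log2 values after robust multichip average (RMA) summarisation, in which 1 unit is a doubling.

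These genes belong to the immediate early response. Synaptic input raises calcium in the neuron, calcium-dependent kinases phosphorylate transcription factors such as CREB and SRF that are already bound near the genes, and their transcription starts within minutes, without new protein synthesis. Most members encode transcription factors that then switch on slower genes acting at the synapse, and their RNA is widely read as a trace of recent activity. *Npas4* encodes a bHLH-PAS factor that responds to calcium entry. *Arc* encodes a synaptic protein that promotes removal of AMPA receptors. *Egr1* to *Egr4* encode zinc finger factors, *Nr4a1* to *Nr4a3* encode orphan nuclear receptors, and *Btg2* encodes an anti-proliferative co-regulator that binds the mRNA deadenylation machinery.

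The sequence just before the transcription start is shown for 4 members because CREB and SRF sites are known entrances to this response, and because, of the members with a window, these 4 had the widest range of log2 signal over the arrays (1.17 to 2.07). RefSeq windows of build GRCm38.p6 were matched for 7 of the 10 members, and the 250 bases before the start were searched on both strands. Capitals mark the short site, which is TGACG on the strand where it is read forward and appears as its reverse complement otherwise. The full CREB site TGACGTCA holds it on both strands, so that 2 short sites overlap there. In *Egr2* the CArG box bound by SRF is in capitals too.
Npas4 (chr19:4989972-4990221, minus strand): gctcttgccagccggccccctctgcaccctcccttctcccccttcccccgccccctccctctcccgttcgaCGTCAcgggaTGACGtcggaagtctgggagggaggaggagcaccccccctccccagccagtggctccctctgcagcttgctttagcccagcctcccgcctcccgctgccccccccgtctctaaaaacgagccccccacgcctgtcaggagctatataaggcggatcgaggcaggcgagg
Btg2 (chr1:134079156-134079405, minus strand): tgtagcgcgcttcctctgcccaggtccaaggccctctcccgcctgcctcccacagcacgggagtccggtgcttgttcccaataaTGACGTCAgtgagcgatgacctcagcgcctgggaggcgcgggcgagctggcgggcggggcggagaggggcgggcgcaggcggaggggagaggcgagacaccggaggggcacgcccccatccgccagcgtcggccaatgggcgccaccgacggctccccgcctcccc
Nr4a1 (chr15:101266596-101266845, plus strand): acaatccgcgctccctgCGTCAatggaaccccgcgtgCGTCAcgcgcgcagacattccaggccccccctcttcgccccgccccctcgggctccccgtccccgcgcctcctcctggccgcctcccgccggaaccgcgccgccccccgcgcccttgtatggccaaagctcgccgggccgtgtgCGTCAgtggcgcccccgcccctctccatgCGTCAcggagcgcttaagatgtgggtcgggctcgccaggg
Egr2 (chr10:67537620-67537869, plus strand): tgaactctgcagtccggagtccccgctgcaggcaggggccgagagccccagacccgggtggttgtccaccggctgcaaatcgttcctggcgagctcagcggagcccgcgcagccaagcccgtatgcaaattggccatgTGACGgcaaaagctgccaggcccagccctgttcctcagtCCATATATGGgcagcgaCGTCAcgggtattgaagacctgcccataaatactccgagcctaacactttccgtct
The short sites of *Npas4* begin 179 and 169 bases before the start, those of *Nr4a1* 233, 213, 69 and 40 bases before it, and those of *Egr2* 112 and 56 bases before it, on either side of the CArG box at 73 bases. *Btg2* was the 1 member with the full site, 166 bases before the start. A short site occurred in 9 of the 11 windows of these members and in 3 of the 5 windows of *Egr2*, against 17.8% of 32851 RefSeq windows of the same length. Those 3 *Egr2* windows overlap and hold the same 2 short sites, so they are not separate matches. At least 1 window had a short site for 7 of 7 members, a count of members that the share of windows does not match in kind. The full site occurred in 1.55% and the CArG box in 1.47% of all windows. A match describes letters in the window and does not show that a factor binds there.

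The plot of member signals shows each array. Each member is represented by its brightest probe set, and levels are compared between arrays of 1 probe set only.

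**Figure D1:**
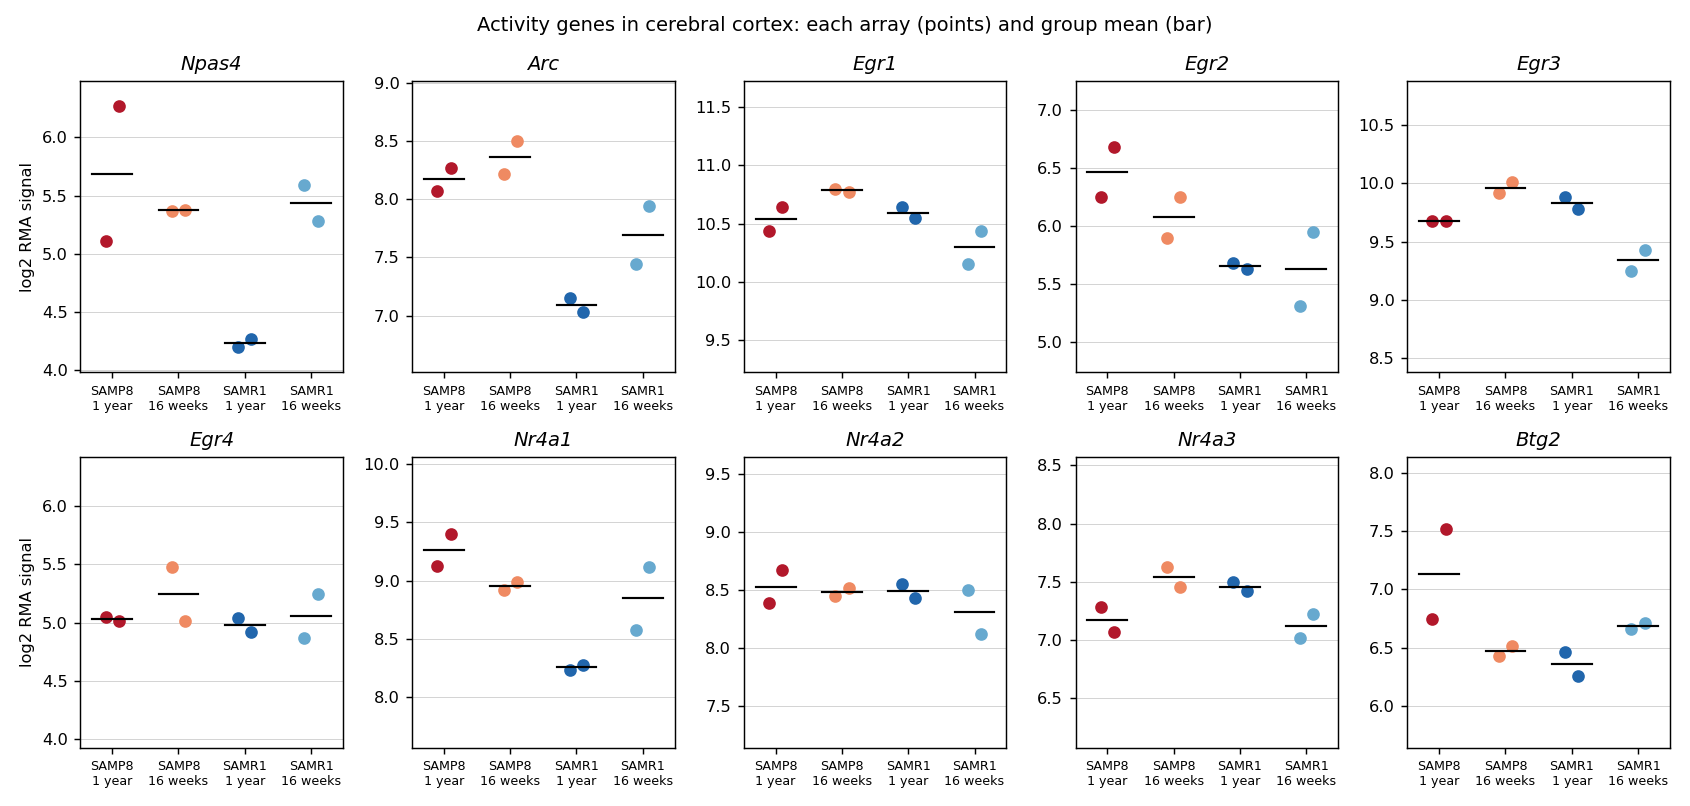
log2 RMA signal of the 10 activity genes, 1 panel per gene, with 1 point per array, a bar at the mean of the 2 arrays of a group and an axis of the same length in every panel. *Npas4* spans 4.20 to 6.27 and *Nr4a2* 8.12 to 8.67, and the 2 SAMR1 1 year arrays are the lowest of the 8 for *Npas4*, *Arc* and *Nr4a1*.

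*Npas4* varied most among the members. Its log2 signal was 5.11 and 6.27 in SAMP8 at 1 year, 5.37 and 5.38 in SAMP8 at 16 weeks, 4.20 and 4.27 in SAMR1 at 1 year, and 5.59 and 5.28 in SAMR1 at 16 weeks. Both SAMR1 1 year arrays lay below the other 6, and the 2 SAMP8 1 year arrays stood 1.16 apart, the widest gap of any member within a group. *Arc* read 8.07 and 8.27 in SAMP8 at 1 year, 8.22 and 8.50 in SAMP8 at 16 weeks, 7.15 and 7.03 in SAMR1 at 1 year, and 7.44 and 7.94 in SAMR1 at 16 weeks. All 4 SAMP8 arrays were above all 4 SAMR1 arrays for this gene, and the old SAMR1 pair was again the lowest.

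Within the Egr family, *Egr1* and *Egr3* followed one course and *Egr2* another. *Egr1*, a factor widely used as a marker of plasticity, had signals of 10.44 and 10.64 in SAMP8 at 1 year, 10.80 and 10.77 in SAMP8 at 16 weeks, 10.64 and 10.55 in SAMR1 at 1 year, and 10.15 and 10.44 in SAMR1 at 16 weeks. *Egr3* gave 9.68 and 9.68 in SAMP8 at 1 year, 9.92 and 10.01 in SAMP8 at 16 weeks, 9.88 and 9.78 in SAMR1 at 1 year, and 9.25 and 9.43 in SAMR1 at 16 weeks. For *Egr1* and *Egr3* alike, the young SAMP8 pair held the highest values, and the young SAMR1 pair the lowest, with 1 tie at 10.44 for *Egr1*. *Egr2*, also known from myelinating Schwann cells, measured 6.25 and 6.68 in SAMP8 at 1 year, 5.90 and 6.25 in SAMP8 at 16 weeks, 5.68 and 5.63 in SAMR1 at 1 year, and 5.31 and 5.95 in SAMR1 at 16 weeks. It was highest in old SAMP8, and the 2 SAMR1 groups overlapped. *Egr4* had 5.05 and 5.01 in SAMP8 at 1 year, 5.48 and 5.01 in SAMP8 at 16 weeks, 5.04 and 4.92 in SAMR1 at 1 year, and 4.87 and 5.25 in SAMR1 at 16 weeks, with no group apart from the rest.

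The 3 Nr4a receptors did not share a course either. *Nr4a1* showed 9.13 and 9.40 in SAMP8 at 1 year, 8.92 and 8.99 in SAMP8 at 16 weeks, 8.23 and 8.28 in SAMR1 at 1 year, and 8.58 and 9.12 in SAMR1 at 16 weeks, so that the old SAMP8 pair was highest and the old SAMR1 pair lowest of all arrays. *Nr4a3* took 7.28 and 7.07 in SAMP8 at 1 year, 7.63 and 7.46 in SAMP8 at 16 weeks, 7.50 and 7.42 in SAMR1 at 1 year, and 7.02 and 7.22 in SAMR1 at 16 weeks. Old SAMP8 and young SAMR1 thus shared the low range for *Nr4a3*, and the other groups the high range, without overlap. *Nr4a2*, a factor required for midbrain dopamine neurons, gave 8.39 and 8.67 in SAMP8 at 1 year, 8.45 and 8.52 in SAMP8 at 16 weeks, 8.55 and 8.43 in SAMR1 at 1 year, and 8.50 and 8.12 in SAMR1 at 16 weeks, and all groups overlapped. *Btg2* reached 6.75 and 7.52 in SAMP8 at 1 year, with 6.43 and 6.51 in SAMP8 at 16 weeks, 6.46 and 6.26 in SAMR1 at 1 year, and 6.66 and 6.71 in SAMR1 at 16 weeks. Only the old SAMP8 pair lay outside the narrow range of the other groups.

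Physiological aging, 1 year against 16 weeks in SAMR1, asks what age does in the control strain. *Egr3* was higher in old SAMR1 cortex, by 0.49 on the log2 scale (SE 0.079, 1.40-fold, n = 2 each), with an adjusted p of 0.0167 from the limma fit over all probe sets. It was the 1 member of 10 called at an adjusted p under 0.05, against 5.48% of probe sets called in either direction and 2.63% called higher. *Npas4* averaged 4.24 ± 0.05 in old and 5.44 ± 0.22 in young SAMR1 (SD, n = 2 each), a log2 difference of −1.20 (SE 0.30) whose limma adjusted p was 0.0545. The differences of *Arc* and *Nr4a1* were −0.60 (limma adjusted p 0.0662) and −0.60 (limma adjusted p 0.0655). *Nr4a3* differed by 0.34 and *Egr1* by 0.30 in the opposite direction, with limma adjusted p of 0.0874 and 0.131. The arrays of the old and young group did not overlap for 3 members that were higher and 4 that were lower at 1 year, beside 52.4% of all probe sets. The study's own threshold (a fold above 1.1 with an unadjusted p under 0.05) was passed by 6 members, beside 23.5% of all probe sets.

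Accelerated aging, 1 year against 16 weeks in SAMP8, gave no member called on its brightest probe set, against 5.07% of probe sets called. The limma unadjusted p was under 0.05 with a fold above 1.1 for 4 members, beside 23.1% of all probe sets. They were *Egr3*, with a log2 difference of −0.28 (SE 0.079, adjusted p 0.0746), *Nr4a3* with −0.37 (SE 0.10, adjusted p 0.0723), *Egr1* with −0.24 (SE 0.11, adjusted p 0.208) and *Btg2* with 0.66 (SE 0.20, adjusted p 0.0953). The groups did not overlap for 2 members higher and 3 lower at 1 year, beside 52.4% of probe sets. *Btg2* has a second, dimmer probe set, which read 6.75 and 7.54 in SAMP8 at 1 year and 5.76 and 5.49 in SAMP8 at 16 weeks. On it *Btg2* was higher at 1 year by 1.52 (SE 0.26, 2.87-fold, limma adjusted p 0.0222), and this call was lost without any 1 of the 4 SAMP8 arrays or either SAMR1 1 year array (adjusted p 0.0513 to 0.113). Choroid plexus markers (8 of 8 measured) moved with age on the same arrays, with a mean log2 signal of 5.07 and 4.78 in old and 4.24 and 4.26 in young SAMP8, and their part in the *Btg2* difference was not tested. They read 5.11 and 5.26 in old and 5.06 and 4.26 in young SAMR1, and none of the 8 was higher in SAMP8 than in SAMR1 at 1 year.

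Early events, SAMP8 against SAMR1 at 16 weeks, showed *Egr3* higher in young SAMP8 cortex by 0.63 (SE 0.079, 1.54-fold, limma adjusted p 0.00922). It was again 1 of 10 members, against 1.23% of probe sets called in either direction and 0.708% called higher. *Egr1* averaged 10.79 ± 0.02 in SAMP8 and 10.30 ± 0.21 in SAMR1 (SD, n = 2 each), a difference of 0.49 with a limma adjusted p of 0.0784. *Arc* and *Nr4a3* differed by 0.67 and 0.43 (limma adjusted p 0.107 and 0.106). Each of these 4 passed the study's threshold, which 14% of all probe sets passed. The young arrays did not overlap for 4 members higher and 1 lower in SAMP8, beside 37.5% of all probe sets. Physiological aging and early events use the same 2 young SAMR1 arrays, so the *Egr3* values of these comparisons are not separate evidence.

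Marker genes of neighbouring tissue moved with those young SAMR1 arrays. The mean log2 signal of 9 striatal markers (9 of 10 measured) was 8.32 and 8.47 in young SAMP8, and 7.17 and 8.47 in young SAMR1. For 8 of 8 thalamic markers it was 5.22 and 5.20 in young SAMP8, and 5.86 and 5.50 in young SAMR1. The 9 of 9 hypothalamic markers averaged 4.23 and 4.19 in young SAMP8 against 4.80 and 4.82 in young SAMR1. Much of this gap lay in *Pmch*, with 3.56 and 3.76 in young SAMP8 and 7.21 and 4.93 in young SAMR1. *Avp* likewise read 3.39 and 3.45 in young SAMP8 and 4.96 and 6.53 in young SAMR1. The median difference of the list was −0.06, with 1 of 9 markers above 0. The 6 of 6 oligodendrocyte markers averaged 9.41 and 9.53 in young SAMP8 against 9.81 and 9.78 in young SAMR1. The 7 of 7 inhibitory neuron markers averaged 8.36 and 8.32 in young SAMP8, and 7.94 and 8.25 in young SAMR1, and the 11 of 11 markers of excitatory cortical neurons 7.59 and 7.72 in young SAMP8, and 7.56 and 7.65 in young SAMR1. The part of these regions and cell types in the *Egr3* difference was not tested. Without the young SAMR1 array that had the low striatal signal, the *Egr3* difference was 0.54 in early events and 0.40 in physiological aging. The young SAMR1 array that remained still stood apart from young SAMP8 in thalamic, hypothalamic and oligodendrocyte signal. Leaving out 1 array therefore does not test the part of these tissues. In tissue RNA, fewer cells of a type and less RNA per cell cannot be told apart.

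Late events, SAMP8 against SAMR1 at 1 year, held the widest differences. *Arc* was higher in old SAMP8 by 1.08 on the log2 scale (SE 0.16, 2.11-fold, limma adjusted p 0.0236), and *Nr4a1* by 1.01 (SE 0.16, 2.01-fold, limma adjusted p 0.03). These were 2 members of 10, against 0.688% of probe sets called in either direction and 0.362% called higher. *Npas4* averaged 5.69 ± 0.82 in old SAMP8 and 4.24 ± 0.05 in old SAMR1 (SD, n = 2 each), and its difference of 1.46 (SE 0.30) did not pass, with a limma adjusted p of 0.101. *Egr2* and *Btg2* differed by 0.81 and 0.78 (limma adjusted p 0.237 and 0.231), whereas *Nr4a3* read lower in SAMP8, by 0.29 (limma adjusted p 0.497). These 6 genes passed the study's threshold, as did 7.57% of all probe sets. For 5 members higher and 2 lower in SAMP8 the old arrays did not overlap, beside 38.6% of all probe sets. The second probe set of *Btg2* was higher in SAMP8 by 1.55 (SE 0.26, limma adjusted p 0.0441), and was called in 3 of the 8 fits that left out 1 array.

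**Figure D2:**
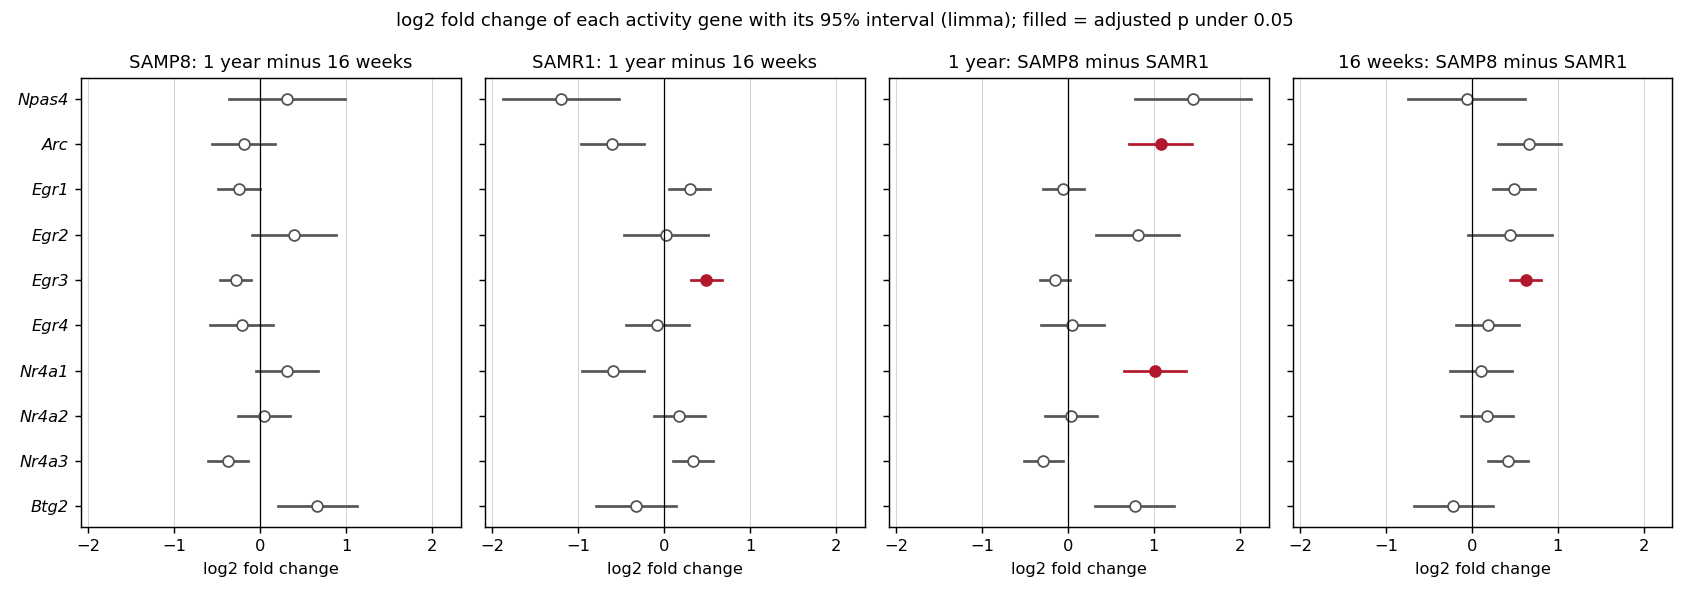
log2 fold change of the 10 activity genes (circles) with the 95% interval from the limma fit (lines), in accelerated aging, physiological aging, late events and early events from left to right. Filled red circles passed an adjusted p under 0.05: *Egr3* in physiological aging (0.49) and early events (0.63), and *Arc* (1.08) and *Nr4a1* (1.01) in late events.

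The calls at 1 year rested on few arrays. Without the SAMP8 array of replicate 2, which was the higher of its pair for 7 of 10 members, the difference of *Arc* was 0.98 (limma adjusted p 0.243) and that of *Nr4a1* 0.88 (limma adjusted p 0.282). The *Arc* call was lost without any 1 of the 4 arrays at 1 year, and the *Nr4a1* call also without either young SAMP8 array. The old SAMP8 array of replicate 2 had a mean signal of 4.96 for the 5 measured of 6 olfactory bulb markers. Its partner read 3.89 and the SAMR1 arrays at 1 year 3.71 to 3.74. The young SAMP8 array of replicate 1 read 4.83, beside 3.79 on its partner. Of that young pair the partner was the higher for 7 of 10 members. The part of this tissue in the differences was not tested. In early events the *Egr3* call was lost without the SAMP8 array of replicate 2 (adjusted p 0.0782 in limma), and in physiological aging without either SAMR1 array at 1 year (adjusted p 0.131 and 0.0748 in limma).

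The effect of age differed in sign between the strains for several members. No member passed in the test of this difference, the age effect in SAMP8 minus that in SAMR1, where 1 probe set of all was called (0.00222%). At the study's threshold 6 members passed in limma, beside 6.92% of all probe sets. *Egr3* had the smallest p among the members, with a difference of −0.78 (SE 0.11, unadjusted p 8.83e-05, adjusted p 0.179 by limma). Those of *Nr4a3* and *Egr1* were −0.71 and −0.54 (limma adjusted p 0.312 and 0.474), and both read lower with age in SAMP8 and higher with age in SAMR1. *Npas4*, *Btg2* and *Nr4a1* ran the other way, with 1.52, 0.99 and 0.90 (limma adjusted p 0.483, 0.498 and 0.422). For 5 members the arrays of the ages did not overlap in either strain and lay in opposite directions, beside 3.34% of all probe sets. *Arc*, *Egr2*, *Egr4* and *Nr4a2* had intervals of this difference that included 0, such as −0.11 to 0.93 for *Arc*.

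Across the 8 arrays the members formed 2 sets, described here after their values were seen and without a test, since the arrays of a group share its age and strain. Of 45 pairs of members, 31 had a Pearson r above 0 and 14 below 0, with a median of 0.28, and 10 pairs reached 0.7. *Egr1* and *Egr3* went together at 0.92, *Egr3* and *Nr4a3* at 0.83 and *Egr1* and *Nr4a3* at 0.75. *Arc* and *Nr4a1* went together at 0.88, *Npas4* and *Nr4a1* at 0.82, *Egr2* and *Nr4a1* at 0.82 and *Npas4* and *Btg2* at 0.78. The lowest value among *Npas4*, *Nr4a1*, *Arc*, *Egr2* and *Btg2* was 0.46 (*Arc* with *Btg2*). For *Npas4*, *Egr2*, *Nr4a1* and *Btg2* the highest of the 8 arrays was the SAMP8 1 year array of replicate 2. How far the r values rest on that array was not tested. Pairs across the sets ran from −0.68 for *Btg2* with *Nr4a3* to 0.50 for *Egr2* with *Egr1*. *Nr4a2* and *Egr4* were placed in neither set, though *Egr4* had an r of 0.53 with *Nr4a3* and 0.49 with *Egr1*. With *Egr3* it had 0.275.

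**Figure D3:**
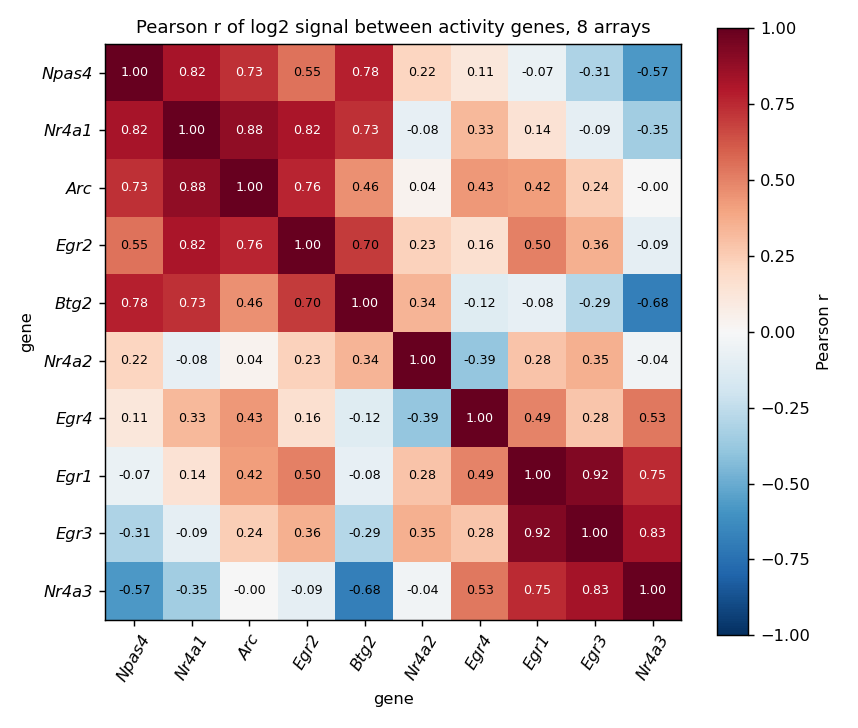
Pearson r of the log2 signals of each pair of activity genes over the 8 arrays, from −1 (blue) to 1 (red), with genes in the same order on both axes. *Npas4*, *Nr4a1*, *Arc*, *Egr2* and *Btg2* form a red block at the upper left, and *Egr1*, *Egr3* and *Nr4a3* (0.75 to 0.92) another at the lower right.

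The 2 arrays of a group stood further apart for these genes in old SAMP8 and young SAMR1 than in the other groups. The median gap between the 2 arrays was 0.24 over the members in SAMP8 at 1 year and 0.09 in SAMP8 at 16 weeks. In SAMR1 it was 0.10 at 1 year and 0.35 at 16 weeks, where the second array was higher for 8 of 10 members. Over all probe sets the median gap was 0.07 at 1 year and 0.09 at 16 weeks in each strain.

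Probe sets of a gene did not always give the same reading. The 2 of *Egr2* differed by similar amounts in late events (0.81 and 0.71, limma adjusted p 0.237 and 0.195). The 5 of *Nr4a2* had late-event differences from −0.06 to 0.26 and early-event differences from −0.035 to 0.235, none called. The same dimmer probe set gave the highest value in both, and its SAMP8 and SAMR1 arrays did not overlap at either age. Beside it, 37.5% of all probe sets did not overlap at 16 weeks and 38.6% at 1 year. The second probe set of *Egr3* and the further pair of *Nr4a3* were dimmer than the brightest ones, with means of 4.392, 4.695 and 3.381. They spanned at most 0.25 over the arrays. In physiological aging and in early events the second *Egr3* probe set differed by 0.025 (limma unadjusted p 0.733 in each). The values of *Egr3* and *Nr4a3* thus rest on 1 probe set each.

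The AP-1 factors, which pair Fos and Jun proteins at a common DNA site, are the other classical products of the early response, and all 7 listed were measured. In late events *Fos* read 8.88 and 9.41 in SAMP8 and 7.90 and 7.92 in SAMR1, a rise of 1.24 (SE 0.16, limma adjusted p 0.0111), and the list median was 0.16 beside 0.00 for all probe sets. *Fos* was the 1 AP-1 gene called there, beside 0.688% of all probe sets. In physiological aging *Junb* fell by 0.97 (limma adjusted p 0.0394), with 5.04 and 4.99 in old and 5.65 and 6.32 in young SAMR1, while *Fosl2* rose by 0.60 (limma adjusted p 0.0414). *Fosl2* was also higher in young SAMP8 than in young SAMR1, by 0.79 (limma adjusted p 0.0333). Of all probe sets, 5.48% were called in physiological aging and 1.23% in early events. In accelerated aging none of the 7 was called, and 2 had an unadjusted p under 0.05 in limma, beside 23.2% of all probe sets.

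Of 31 other rapid response genes 29 were measured. In late events 2 were called, both higher in SAMP8: *Apold1*, an early gene of vascular endothelium, by 1.19 (limma adjusted p 0.00284), and *Dusp1*, a phosphatase that ends MAP kinase signals, by 1.05 (limma adjusted p 0.0266). The *Apold1* signal was 6.05 and 6.26 in old SAMP8 and 4.89 and 5.05 in old SAMR1. Of the 29, 22 had a positive difference in this comparison, with a median of 0.09. Accelerated aging gave 2 called higher, *Apold1* (0.87, limma adjusted p 0.0142) and the mRNA decay factor *Zfp36* (0.45, limma adjusted p 0.042), and 2 called lower, *Gpr3* (−0.48, limma adjusted p 0.0275) and *Ier5* (−0.54, limma adjusted p 0.0474). *Gadd45g* was the 1 called in physiological aging (−0.39, limma adjusted p 0.0231), and *Dusp6* the 1 in early events (0.47, limma adjusted p 0.0486). The shares of all probe sets called were 0.688% in late events, 5.07% in accelerated aging, 5.48% in physiological aging and 1.23% in early events.

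The slower effector genes encode products that act at synapses and in secretion. Of 20 listed, 19 were measured, and in accelerated aging 18 of them had a negative difference, with a median of −0.23 beside 0.00 over all probe sets. Called lower were 5, against 2.8% of all probe sets. *Ptgs2*, the inducible cyclooxygenase, fell by 0.98 (limma adjusted p 0.0169), with 5.30 and 5.28 in old and 6.31 and 6.23 in young SAMP8. *Nptx2*, a pentraxin that clusters AMPA receptors, fell by 0.86 (limma adjusted p 0.0183), and the scaffold gene *Homer1* fell by 0.48 (limma adjusted p 0.0142). The *Homer1* value is that of its brightest probe set, which differed by 0.055 in physiological aging. There the paper lists *Homer1* among its most upregulated genes, and its other probe sets are not described here. *Nrn1* and *Nrgn* were the others, with falls of 0.43 and 0.40 (limma adjusted p 0.0372 and 0.0435). Without either old SAMP8 array, or without the young SAMP8 array of replicate 2, none of the 19 was called, and 2 to 8 were called in the other fits that left out 1 array. The calls over all probe sets were 5, 21 and 23 in these 3 fits, against 2283 with all arrays. Neuron markers read lower in the same comparison. Those of excitatory cortical neurons had a median of −0.24, with 2 of 11 above 0 and *Fezf2* called (−0.51, limma adjusted p 0.0275), and their mean signal was 7.51 and 7.50 in old and 7.59 and 7.72 in young SAMP8. Those of inhibitory neurons had a median of −0.14, with 1 of 7 above 0 and the interneuron peptide gene *Vip* called (−0.63, limma adjusted p 0.0123), and their mean signal was 8.10 and 8.08 in old and 8.36 and 8.32 in young SAMP8. Their part in the effector differences was not tested.

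At 16 weeks all 19 of these effectors had a positive difference between SAMP8 and SAMR1, with a median of 0.26, and 12 had an unadjusted p under 0.05 in limma, beside 14% of all probe sets, but 0 passed the adjusted threshold. Their mean signal was 7.61 and 7.60 in old SAMP8, 7.95 and 7.88 in young SAMP8, 7.62 and 7.63 in old SAMR1, and 7.57 and 7.63 in young SAMR1. The young SAMP8 pair stood above all other arrays, as it did for *Egr1* and *Egr3*. Inhibitory neuron markers were also higher in young SAMP8 than in young SAMR1 for 6 of 7 genes, with a median of 0.20, and *Vip* was called (0.90, limma adjusted p 0.00113). The effector list itself holds the interneuron genes *Sst*, *Cort* and *Crh*, of which *Sst* is on both lists, and the part of these cells in the effector differences was not tested. These comparisons share the young SAMP8 arrays. In physiological aging 1 effector was called, beside 5.48% of all probe sets. It was *Bdnf*, the neurotrophin, which rose by 0.45 (limma adjusted p 0.0348). In late events none was called, and 5 had an unadjusted p under 0.05 in limma, beside 7.58% of all probe sets.

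Among 27 genes of upstream signalling, all measured, calls were made only in physiological aging, 1 in each direction: *Mef2c*, a calcium-responsive factor, rose by 0.29 (limma adjusted p 0.0339), and *Grin1*, the obligatory NMDA receptor subunit, fell by 0.36 (limma adjusted p 0.0479). Of all probe sets, 5.48% were called in physiological aging and 5.07% in accelerated aging. The medians of the upstream list lay between −0.10 and 0.08 in the 4 comparisons. Of 17 partner and co-regulator genes, *Prmt1*, an arginine methyltransferase that binds Btg2 protein, was the 1 called, lower with age in SAMR1 (−0.45, limma adjusted p 0.0141) and in SAMP8 (−0.38, limma adjusted p 0.0223). Of the 22 calls made for genes of these 5 lists over the 4 comparisons, *Apold1* in late events was called in 8 of the 8 fits that left out 1 array. *Fos* in late events was called in 6 of them, and lost without either SAMR1 array at 1 year. The other calls held in 1 to 6 of the 8 fits.

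**Figure D4:**
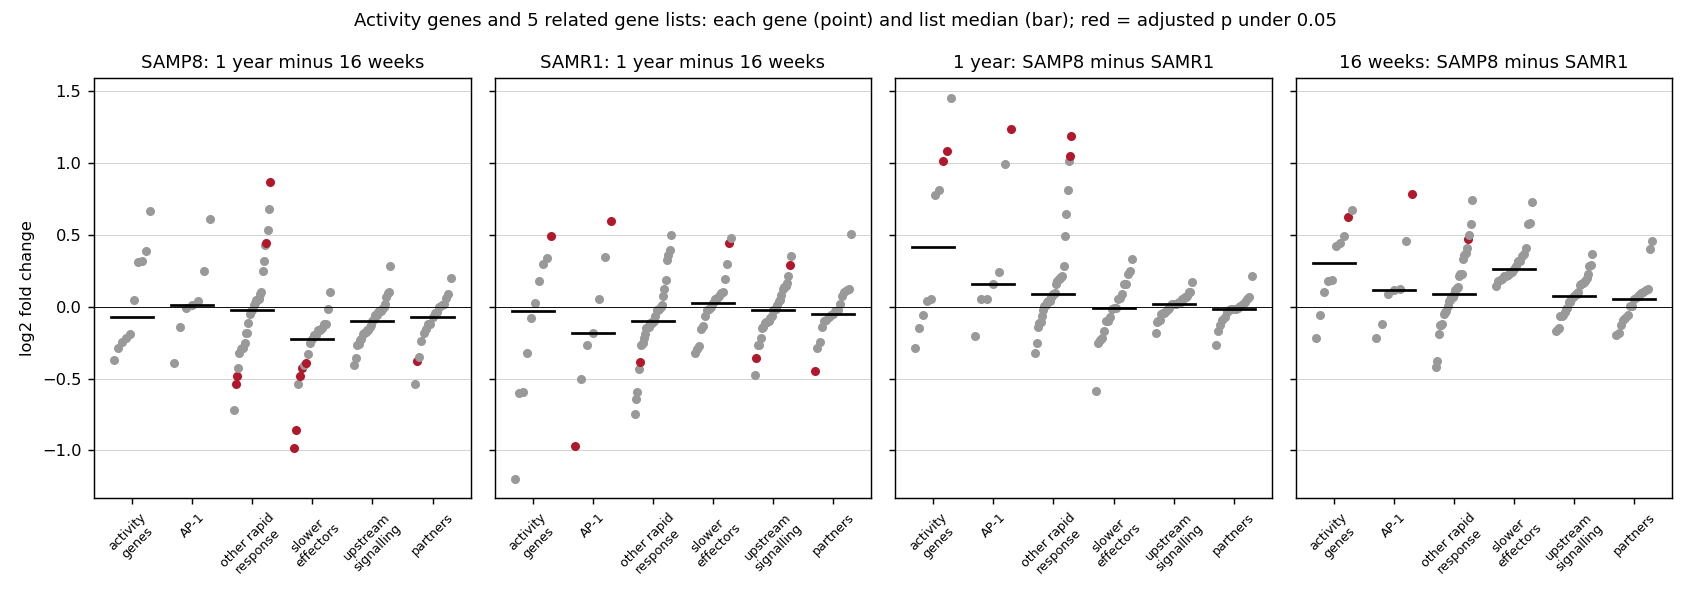
log2 fold change of each gene (points) and the median of each list (bars) for the 10 activity genes and 5 related lists, in accelerated aging, physiological aging, late events and early events from left to right, with red for an adjusted p under 0.05. The slower effectors lie below 0 in accelerated aging (median −0.23) and above 0 in early events (median 0.26).

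Genes most like *Npas4* over the 8 arrays, among 2074 probe sets with an SD of at least 0.25 and 1 symbol, were *Hspa8* (r = 0.97), *Ier2* (0.91), *Dusp1* (0.90), *Cyr61* (0.87) and *Jag1* (0.86). Those most like the mean of the 10 members were *Gdpd3* (0.96), *Parp12* (0.96), *Ppox* (0.95), *Cxadr* (0.93), *Ginm1* (0.93), *B2m* (0.93), *Htr1f* (0.92), *Gbp3* (0.92), BC094435 (0.92) and *Fbll1* (0.92). Least like it were *Vps13b* (−0.95), *Kcnj13* (−0.92), *Rgs19* (−0.92), *Slc24a2* (−0.92) and *Mtap* (−0.91). Each of these values rests on 1 probe set, which need not be the brightest of its gene, and that of *Hspa8* read 4.03 to 5.54. Each also rests on 8 arrays of 4 groups, which share strain and age.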

How the data were processed

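RNA of mouse cerebral cortex was hybridised to Affymetrix mouse genome array strips, 2 arrays for each of 4 groups. The authors summarised the arrays by RMA and deposited log2 signals with 1 value per probe set and array. Tools listed in the submitters' processing notes are limma, RMA and the Transcriptome Analysis Console. Labels, series text and paper each name a different labelling kit, so the stretch of a transcript that was labelled is not settled. Their tables of fold changes and p-values were not used in the fits.

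The table holds 45077 probe sets, of which 40 controls were dropped. Group means were fitted with limma 3.58.1 in R 4.3.3 over all 8 arrays (4 residual and 4.52 prior degrees of freedom), with Benjamini-Hochberg adjustment over 45037 probe sets. Outside the lists of like pattern, a gene is given by its brightest probe set unless another is named, and a call is an adjusted p under 0.05. The number of arrays limits the precision. All members are named, as are up to 4 genes per related list with the smallest p in a comparison. *Nrgn* falls outside this rule and was named after its value was seen. The fit was tested on simulated data. Members and lists were chosen with earlier results of these data known. Alternatives were the 4 arrays of a comparison alone, array weights, each array left out, a block for the replicate number, another variance model, other scalings, a filter on dim probe sets, other choices of probe set and the study's threshold. Those for the related lists and the second *Btg2* probe set were chosen after seeing the data.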

Additional observations from a re-analysis of the deposited data

Results flagged for a closer look

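The age effect ran in opposite directions in the strains for 5 members, with arrays that did not overlap between the ages in either strain, as for 3.34% of all probe sets. The age effect in SAMP8 minus that in SAMR1 was −0.54 for *Egr1* (−0.24 in SAMP8 and 0.30 in SAMR1), −0.78 for *Egr3* (−0.28 in SAMP8 and 0.49 in SAMR1) and −0.71 for *Nr4a3* (−0.37 in SAMP8 and 0.34 in SAMR1). It was 0.90 for *Nr4a1* (0.31 in SAMP8 and −0.60 in SAMR1) and 0.99 for *Btg2* (0.66 in SAMP8 and −0.32 in SAMR1). In limma's test of the difference the unadjusted p was 8.83e-05 for *Egr3*, 0.000929 for *Nr4a3*, 0.00329 for *Nr4a1*, 0.00574 for *Egr1* and 0.00779 for *Btg2*, and the adjusted p ran from 0.179 to 0.498, so that none passed.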

How the results depend on the processing

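Members called in physiological aging were 0 when only its 4 arrays were fitted, 2 with arrays centred on their medians, 2 with a filter on dim probe sets, 6 at the study's threshold and 0 to 3 with 1 array left out. In accelerated aging they were 1 with another variance model, 1 with the probe set of smallest p, 1 with the mean of all probe sets, 4 at the study's threshold and 0 to 2 with 1 array left out. In early events they were 0 with only its 4 arrays, 2 with another variance model, 4 at the study's threshold and 0 to 3 with 1 array left out. In late events they were 1 with another variance model, 6 at the study's threshold and 0 to 2 with 1 array left out. The difference of the age effects gave 1 with another variance model, 6 at the study's threshold and 0 to 1 with 1 array left out. Apart from the replicate block, the remaining alternatives kept each count within 1.5 times its value. With the replicate number as a block, members called were 4 in physiological aging (*Npas4*, *Arc*, *Nr4a1* and *Egr3*, adjusted p 0.0484, 0.0364, 0.0288 and 0.0187 in limma), 0 in accelerated aging, 1 in early events, 2 in late events and 0 for the difference. The shares of all probe sets called under the block were 5.99%, 5.57%, 1.23%, 0.757% and 0% in the same order. Arrays of the same number deviated together only weakly (correlations from −0.086 to 0.196), so the number was not taken as a pairing.

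Over all alternatives, 855 of the members' fold changes kept direction and side of the threshold, 49 gained and 16 lost the call, 20 uncalled ones changed sign, and 0 called ones did. *Egr3* kept its call in 17 of 19 alternatives in early events and 16 of 19 in physiological aging, *Arc* in 15 of 19 and *Nr4a1* in 12 of 19. Some of the 19 could not remove these calls, so the counts overstate how well the calls held. The study's threshold is looser than the adjusted one, and the probe set of smallest p can only lower p. Calls over all probe sets varied too, from 0 to 10565 in physiological aging. The 10565 is the count at the study's unadjusted threshold, and the main fit gave 2466 at an adjusted p under 0.05.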
